A study of Mus musculus with 20 samples.

Results

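The fibroblast growth factor (FGF) genes described here are 9 of the 43472 genes in the count table. They were taken by symbol and comprise the ligands Fgf1, Fgf2, Fgf7, Fgf10 and Fgf18 and the receptors Fgfr1, Fgfr2, Fgfr3 and Fgfr4. Bulk RNA sequencing followed them through the ventral prostate, a lobe of the mouse prostate that shrinks after castration and regrows when androgen returns. All animals were orchidectomised males, so every group had lost its testicular androgen, and each then received testosterone or vehicle for 4 days. The 4 groups of 5 libraries were ARNoC/Y males with testosterone, ARNoC/Y males with vehicle, wild type C57BL/6J males (WT) with testosterone and WT males with vehicle. ARNoC/Y males, called ARNoC here, have an androgen receptor in which the contact between its N-terminal and C-terminal domains is abolished. Gene counts cannot show that change, so the genotype labels were not checked. The labels give neither age nor dose, and do not say whether each library is a different animal, so p-values measure only the spread between these libraries.

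FGF ligands bind receptor tyrosine kinases together with heparan sulfate chains on the cell surface. The receptors signal through the adaptor Frs2 to the Ras and MAP kinase cascade, which in turn induces feedback inhibitors such as the Sprouty proteins and Dusp6. In the prostate, stromal cells make Fgf7 and Fgf10, and both act on an epithelial splice form of Fgfr2, a route by which stroma sustains epithelial growth. Counts per gene do not separate the splice forms of a receptor, and in bulk tissue fewer cells of a type cannot be told apart from less RNA per cell.

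Testosterone lowered Fgfr2, the receptor of Fgf7 and Fgf10, in both genotypes, by 1.58-fold in ARNoC and 1.42-fold in WT prostates, with no overlap between treated and vehicle libraries. In ARNoC prostates Fgf1 and Fgfr3 were also lower with testosterone, by 1.26-fold and 1.41-fold. No member was called higher, where 19.4% of all genes were in ARNoC and 20.4% in WT, and neither stromal ligand, Fgf7 or Fgf10, passed the test in either genotype. Of the 9 members 7 passed the filter of at least 10 normalized counts in at least 5 libraries, Fgf18 and Fgfr4 being the exceptions. A gene is called here when its p from the quasi-likelihood test of edgeR, adjusted over all 15261 genes tested by the Benjamini-Hochberg method, is under 0.05. In ARNoC 3 of 7 tested members were called lower, where 16.8% of all genes tested were called lower and 36.2% were called in either direction. In WT 1 of 7 was called lower, where 18.8% of all genes were called lower and 39.2% in either direction. The median log2 change of the tested members was -0.36 in ARNoC, where that of all genes was -0.01, and -0.37 in WT, where that of all genes was -0.02.

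Between genotypes, 0 of 7 members were called with testosterone, where 1.69% of all genes were called, and 0 of 7 with vehicle, where 0.321% were. The interaction, the testosterone response of ARNoC minus that of WT, called 0 members and 0% of all genes by edgeR. At an unadjusted p under 0.05 there was 1 member between genotypes with testosterone, beside 2237 of all 15261 genes, 0 members with vehicle, beside 1143 genes, and 0 in the interaction, beside 1306 genes. DESeq2, limma-trend and limma-voom each called 0 members in these 3 comparisons.

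Libraries held 8861646 to 21600352 counts, and all 40 pairs of libraries within a group differed by more than sampling noise. Markers of luminal epithelium, the secretory cells of the prostate, had scores of 8.17 to 9.02 over the libraries, where a score is the mean log2 CPM, a count scaled to library size, of a marker list. Seminal vesicle markers, from a gland that adjoins the prostate, scored -2.64 to -0.97. Fibroblast scores varied within groups: they spanned 5.52 to 6.93 in ARNoC with testosterone, 4.63 to 7.98 in ARNoC with vehicle, 4.09 to 6.32 in WT with testosterone and 5.33 to 8.12 in WT with vehicle. The lowest vehicle libraries, ARNoC vehicle library 5 and WT vehicle library 2, are called stroma-poor. WT testosterone libraries 1 and 2 scored below WT vehicle library 2, at 4.92 and 4.09 against 5.33, and were kept. Leaving out the stroma-poor libraries therefore removes low scores from the vehicle side only. Adipocyte markers spread more widely in the WT groups, at -0.10 to 7.08 with testosterone and 3.74 to 7.49 with vehicle. Skeletal muscle markers scored 0.29 to 3.22 in ARNoC with testosterone and -0.23 to 4.28 in ARNoC with vehicle. In WT they scored 0.19 to 5.69 with testosterone and -0.97 to 6.37 with vehicle. Changes are stated relative to the bulk of genes, since scaling to total counts moved the median log2 change of all genes by -0.35 in ARNoC and by -0.42 in WT, and then called 4 of 7 members lower in ARNoC and 5 in WT.

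**Figure D1:**
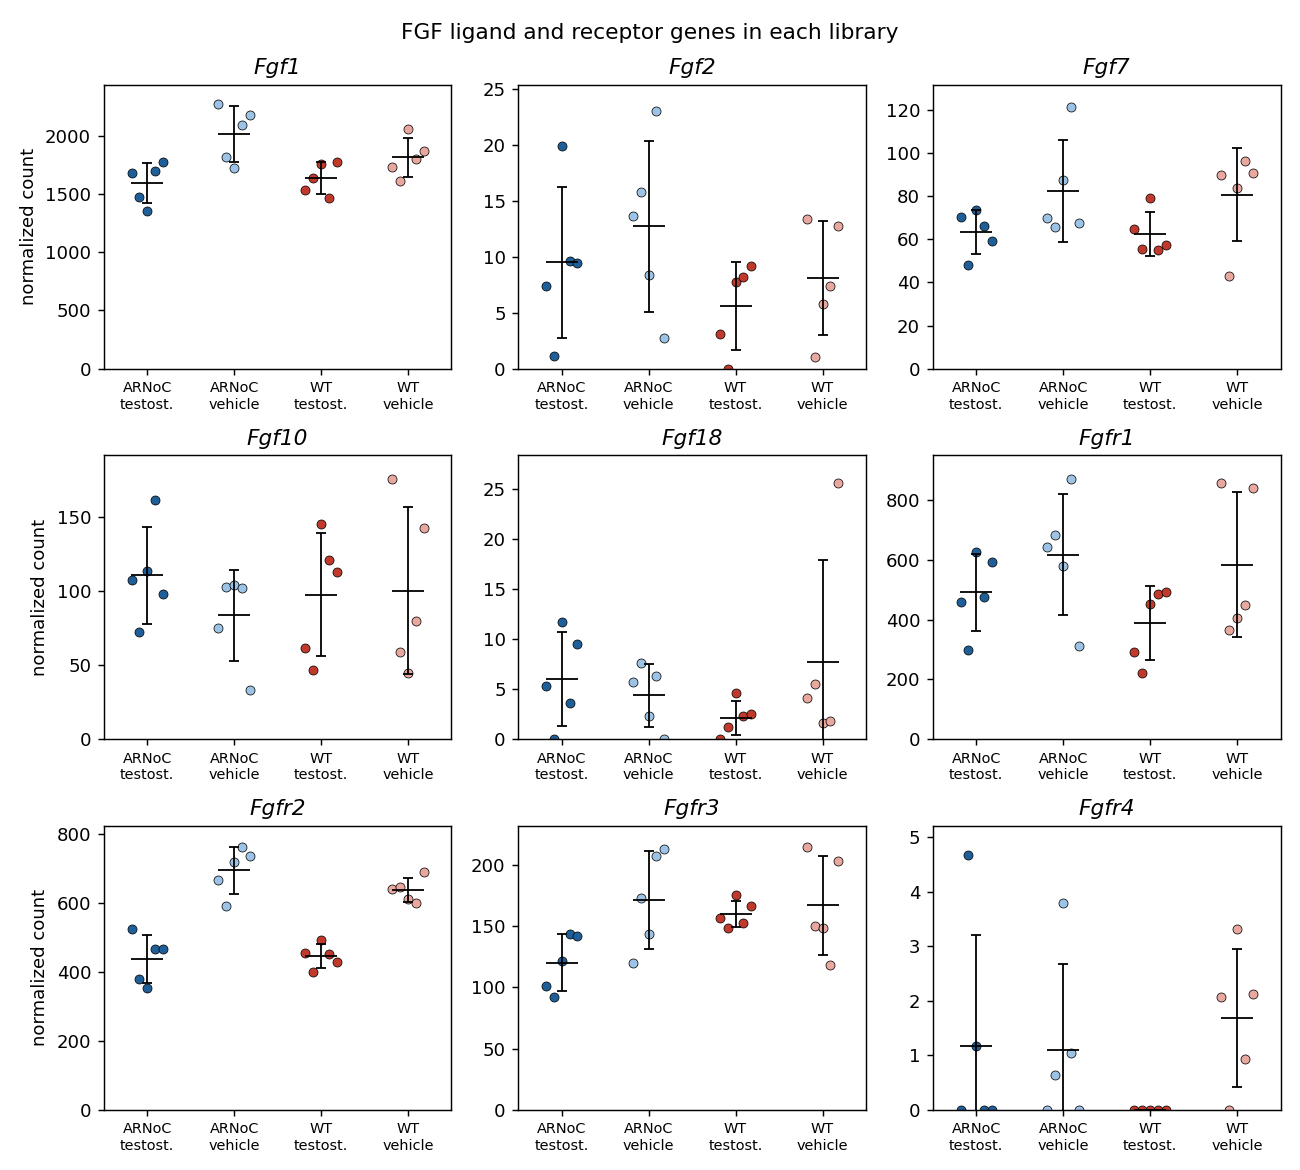
Normalized count of each of the 9 FGF genes in every library, by group; points are libraries, the wide bar is the mean and the whiskers are the SD of 5 libraries. Fgfr2 is the gene whose testosterone and vehicle libraries separate in both genotypes, with 354 to 525 against 591 to 765 in ARNoC and 401 to 493 against 601 to 690.1 in WT.

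The promoter stretches of Fgfr2 and Fgfr3 are shown because these receptors carry 3 of the 4 called changes of the members. RefSeq promoters of GRCm38.p6, the assembly also called mm10, were matched by symbol for 7 of 9 members. The 250 bases before the start are printed 5′ to 3′ on the strand of the gene, at chr7:130266809-130267058 on the minus strand for Fgfr2 and at chr5:33721474-33721723 on the plus strand for Fgfr3. Capitals mark GC boxes, GGGCGG or its complement CCGCCC, a motif of many promoters that lack a TATA box.
Fgfr2: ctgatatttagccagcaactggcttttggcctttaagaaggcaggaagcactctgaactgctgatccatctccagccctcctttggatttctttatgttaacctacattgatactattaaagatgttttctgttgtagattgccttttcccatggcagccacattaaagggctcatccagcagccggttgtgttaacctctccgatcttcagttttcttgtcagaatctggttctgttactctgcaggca
Fgfr3: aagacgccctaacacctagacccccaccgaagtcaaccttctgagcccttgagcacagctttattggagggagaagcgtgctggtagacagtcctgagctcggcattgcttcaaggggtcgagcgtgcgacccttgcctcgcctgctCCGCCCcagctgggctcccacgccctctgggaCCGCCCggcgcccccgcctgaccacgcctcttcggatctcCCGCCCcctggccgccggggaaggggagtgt
These 2 stretches are unlike. In the 300 bases that also take in 50 after the start, Fgfr2 had 43.7% G or C, 4 CpG pairs and 0 GC boxes, and Fgfr3 had 69.7%, 26 CpG pairs and 4 GC boxes, of which 3 lie in the stretch shown. RefSeq lists a second Fgfr3 start downstream, not shown, whose window had 73.0% G or C, 30 CpG pairs and 2 GC boxes; the upstream start was the one printed. The medians over 32851 promoters were 52.7% and 7 CpG pairs. Both strands were searched. A GC box was found in 35.7% of promoters, TATAAA in 13.6%, the ETS factor core CCGGAAGT in 3.89% and the androgen response element, AGAACA and TGTTCT set 3 bases apart, in 0.00913%. AGAACA alone, the repeat unit of that element, was in 19.0% of promoters and in none of those matched to a member, which says only that these letters are not in these windows.

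Among the ligands, Fgf1, a broadly acting factor that binds every FGF receptor, was the most abundant member. Its gene lies at chr18:38838673-38929472 in mm10. Its normalized counts were 1677, 1475, 1357, 1695 and 1775 in libraries 1 to 5 of ARNoC with testosterone, against 2273, 1814, 1718, 2088 and 2178 in ARNoC with vehicle. In WT they were 1531, 1639, 1760.4, 1466 and 1776 with testosterone, against 1728, 1612, 2056, 1803 and 1865 with vehicle. The highest vehicle libraries of ARNoC stood above every other library, but the groups overlapped in both genotypes: ARNoC testosterone library 5 exceeded ARNoC vehicle library 3.

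Fgf1 averaged 1596 ± 173 in ARNoC with testosterone and 2014 ± 238 in ARNoC with vehicle (SD, n = 5 each), a log2 change of -0.33 ± 0.09 (SE, adjusted p = 0.00685, edgeR). In WT it averaged 1635 ± 137 with testosterone and 1813 ± 165 with vehicle, a log2 change of -0.14 with a 95% interval of -0.33 to 0.05 (adjusted p = 0.226, edgeR), which did not pass. The difference between these responses was -0.19 on the log2 scale and was not called (adjusted p = 0.711, edgeR). Between genotypes Fgf1 differed by -0.03 with testosterone and by 0.16 with vehicle, neither called. Basal epithelial markers were lower with testosterone too, with 5 of 9 called in ARNoC. With their score as a covariate the ARNoC change of Fgf1 was -0.31 and no longer called (adjusted p = 0.0834, edgeR). The estimate moved little from -0.33, while its SE rose from 0.09 to 0.12. Within groups the r of Fgf1 with the basal score was 0.085, and the part of basal cells was not tested.

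Fgf7, also called keratinocyte growth factor and made by stroma, had normalized counts of 70.2, 48.0, 73.8, 66.0 and 59.3 in ARNoC with testosterone, against 69.7, 65.9, 87.4, 121 and 67.6 in ARNoC with vehicle. WT prostates had 64.7, 55.4, 79.1, 55.2 and 57.4 with testosterone, against 89.9, 42.8, 83.7, 96.3 and 90.5 with vehicle. In WT, 4 of 5 vehicle libraries exceeded every testosterone library, and WT vehicle library 2, a stroma-poor library, lay below all of them. In ARNoC the highest vehicle library, library 4, stood well above the rest and the groups overlapped.

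Fgf7 averaged 63.5 ± 10.2 in ARNoC with testosterone and 82.4 ± 23.4 in ARNoC with vehicle, and 62.4 ± 10.1 in WT with testosterone and 80.6 ± 21.6 in WT with vehicle (SD, n = 5 each). The log2 change was -0.36 in ARNoC, with a 95% interval of -0.80 to 0.08 (adjusted p = 0.191, edgeR), and -0.37 in WT, with an interval of -0.81 to 0.08 (adjusted p = 0.182, edgeR). The difference between the responses was 0.0048, with an interval of -0.61 to 0.62 that leaves room for a sizeable difference either way. Without WT vehicle library 2 the WT change was -0.52 and was called (adjusted p = 0.0305, edgeR), and with the smooth muscle score as a covariate the ARNoC change was -0.58 and was called (adjusted p = 0.0407). The first of these fits kept the WT testosterone libraries with lower fibroblast scores. Myeloid markers moved in the same direction, with 8 of 9 called lower in ARNoC and 9 of 9 in WT, and their score followed Fgf7 within groups with r = 0.67 over 20 libraries. Their part in the values of Fgf7 was not tested.

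Fgf10, the stromal ligand that mouse prostate buds need in order to form, had normalized counts of 107, 72.6, 114, 162 and 98.5 in ARNoC with testosterone, against 75.5, 103, 104, 103 and 33.3 in ARNoC with vehicle. In WT prostates they were 61.6, 47.1, 146, 121 and 113 with testosterone, against 176, 59.3, 44.7, 79.7 and 143 with vehicle. Libraries of a single group spread by several fold, the groups overlapped almost fully, and the 3 lowest libraries were ARNoC vehicle library 5 and WT testosterone library 2, both low in fibroblast score, and WT vehicle library 3, which was not. The log2 change was 0.42 in ARNoC, with a 95% interval of -0.36 to 1.20 (adjusted p = 0.41, edgeR), and -0.02 in WT, with an interval of -0.81 to 0.77 (adjusted p = 0.973, edgeR). With the fibroblast score as a covariate the change was 0.78 in ARNoC, which was called (adjusted p = 0.0274), and 0.79 in WT. The ARNoC change was 1.25 with the luminal score, also called (adjusted p = 0.00551, edgeR). With the smooth muscle score it turned to -0.28 and was not called (adjusted p = 0.479, edgeR). The WT change also turned sign under other settings, among them limma-voom at 0.085, so no direction can be given for it.

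Fgf2, the basic FGF of stroma and endothelium, was scarce. Its normalized counts were 7.44, 1.17, 19.9, 9.60 and 9.50 in ARNoC with testosterone, against 13.7, 15.8, 8.36, 23.0 and 2.78 in ARNoC with vehicle. They were 3.08, 0, 7.75, 8.22 and 9.15 in WT with testosterone, against 13.4, 1.10, 5.80, 7.41 and 12.8 in WT with vehicle. No group stood apart, and the 95% intervals of the log2 change ran from -1.67 to 0.88 in ARNoC and from -1.91 to 0.99 in WT, so large changes either way remain within them. Exons of Fgf2 overlap those of Nudt6, a gene on the opposite strand, by 640 bases. The strand setting of the counting is not given in the sources used here, so reads of these genes may not be separated. Nudt6 averaged 94.5 ± 16.5 in ARNoC with testosterone and 88.2 ± 10.6 in ARNoC with vehicle, and 87.5 ± 7.85 in WT with testosterone and 80.8 ± 7.23 in WT with vehicle (SD, n = 5 each), and was not called in either genotype.

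Fgf18, a ligand best known from skeletal and lung development, did not reach the filter. It had 29 counts in all over the 5 libraries of ARNoC with testosterone, 29 in ARNoC with vehicle, 9 in WT with testosterone and 37 in WT with vehicle. In WT with vehicle, library 5 alone had a normalized count of 25.6 and the others had 1.66 to 5.49. With no filter on low counts its log2 change was 0.36 in ARNoC (adjusted p = 0.824, edgeR) and -1.82 in WT (adjusted p = 0.173, edgeR).

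Among the receptors Fgfr2, at chr7:130162451-133123350 on the minus strand of mm10, had the clearest response. This GENCODE span covers all 27 annotated transcripts, and the RefSeq promoter printed above lies inside it, not at its end. In ARNoC its normalized counts were 525, 379, 354, 466 and 468 in libraries 1 to 5 with testosterone, against 667, 591, 720.4, 765 and 738 with vehicle. In WT they were 454, 401, 493, 453 and 430.2 with testosterone, against 642, 649, 612, 601 and 690.1 with vehicle. Every testosterone library lay below every vehicle library of its genotype, a pattern without overlap that 10.7% of all genes tested showed in the lower direction in ARNoC and 11.9% in WT.

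Fgfr2 averaged 438 ± 70.4 in ARNoC with testosterone and 696 ± 68.6 in ARNoC with vehicle (SD, n = 5 each), and fell by 0.66 ± 0.10 on the log2 scale (SE, 95% interval -0.86 to -0.46, adjusted p = 1.84e-05, edgeR). In WT it averaged 446 ± 34.1 with testosterone and 639 ± 34.8 with vehicle, and fell by 0.51 ± 0.10 (SE, 95% interval -0.71 to -0.31, adjusted p = 3e-04, edgeR). The difference between the responses was -0.15, with an interval of -0.43 to 0.13 (adjusted p = 0.788, edgeR). Between genotypes it differed by -0.02 with testosterone and by 0.13 with vehicle, neither called.

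The fall of Fgfr2 was called under all 35 alternatives in each genotype, among them 4 in which the score of fibroblasts, smooth muscle, luminal or basal epithelium entered as a covariate. Another 20 each left out 1 library, and those that dropped the other genotype test the call little. The log2 change of Fgfr2 ranged over all 35 from -1.005 to -0.57 in ARNoC, with a largest adjusted p of 0.00224. In WT it ranged from -0.93 to -0.37, with a largest adjusted p of 0.0364. Within groups, over 20 libraries, the r of Fgfr2 was -0.005 with the fibroblast score, 0.45 with smooth muscle, 0.43 with nerve and glia and -0.38 with the luminal score. A transcript of the annotated gene shares 314 exonic bases with Ctbp2 on the same strand, where the authors' counting could have dropped or split reads.

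**Figure D2:**
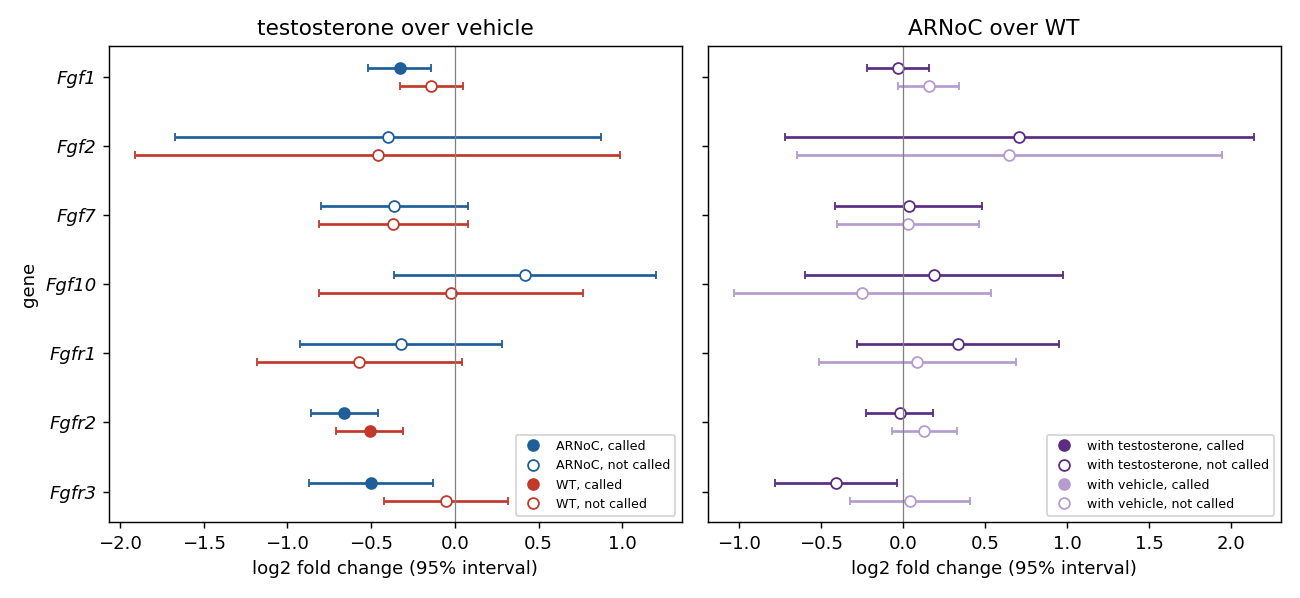
Log2 fold change of the 7 tested FGF genes, testosterone over vehicle (left) and ARNoC over WT (right), with 95% intervals from edgeR; filled points are called at an adjusted p under 0.05. Fgfr2 lies left of 0 in both genotypes, Fgf1 and Fgfr3 are filled in ARNoC, and no point is filled between genotypes.

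Fgfr3, a receptor expressed in many epithelia, lies at chr5:33721674-33737068 in mm10. Its normalized counts were 101, 92.5, 122, 143 and 142 in ARNoC with testosterone, against 120.1, 174, 144, 207 and 213 in ARNoC with vehicle. WT prostates had 157, 149, 175, 153 and 166 with testosterone, against 215, 150.4, 148, 119 and 203 with vehicle. ARNoC vehicle library 1 lay among the testosterone libraries and the other 4 above them, while in WT the testosterone libraries sat inside the range of the vehicle libraries. Set against WT with testosterone, all 5 ARNoC testosterone libraries were lower, without overlap, as was so for 2.33% of all genes.

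Fgfr3 averaged 120.2 ± 23.3 in ARNoC with testosterone and 171 ± 40.1 in ARNoC with vehicle (SD, n = 5 each), a log2 change of -0.50 ± 0.18 (SE, 95% interval -0.87 to -0.13, adjusted p = 0.0319, edgeR). In WT it averaged 160.0 ± 10.8 with testosterone and 167 ± 40.6 with vehicle, a log2 change of -0.05 (adjusted p = 0.842, edgeR). The difference between the responses was -0.45, with an interval of -0.97 to 0.07, and was not called (adjusted p = 0.634, edgeR). With testosterone ARNoC minus WT was -0.41, with an interval of -0.78 to -0.03, which passed at the unadjusted p of 0.0342 and not after adjustment (adjusted p = 0.294, edgeR).

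The ARNoC call of Fgfr3 was lost when ARNoC vehicle library 2 (adjusted p = 0.0516), 4 (0.0843) or 5 (0.0894) or ARNoC testosterone library 1 (0.056) or 2 (0.0646) was left out, without both stroma-poor libraries (0.0949) and by limma-voom (0.068), with log2 changes of -0.50 to -0.40. Basal epithelial markers, of the layer beneath the luminal cells, scored 3.55 to 3.90 in ARNoC with testosterone and 3.88 to 4.59 in ARNoC with vehicle, and Fgfr3 followed their score within groups with r = 0.62 over 20 libraries. It followed the skeletal muscle score nearly as closely, with r = 0.59, and the part of either cell type was not tested. With the basal score as a covariate the ARNoC change was -0.06 (adjusted p = 0.888), and with the luminal score it was -0.38 (adjusted p = 0.162). Both scores shifted with treatment, so these fits cannot separate testosterone from the score. Exons of Fgfr3 overlap 998 bases of G630022F23Rik on the opposite strand.

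Fgfr1, the main receptor of mesenchymal cells, had the widest spread among the abundant receptors. Its normalized counts were 460.2, 299.7, 627, 475 and 593 in ARNoC with testosterone, against 643, 681, 581, 871 and 311 in ARNoC with vehicle. In WT they were 293, 220.4, 451, 486 and 493 with testosterone, against 856, 365, 407, 450.2 and 841 with vehicle. The groups overlapped in both genotypes, and the lowest vehicle library of each genotype was its stroma-poor library.

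The log2 change of Fgfr1 was -0.32 in ARNoC, with a 95% interval of -0.93 to 0.28 (adjusted p = 0.412, edgeR), and -0.57 in WT, with an interval of -1.18 to 0.04 (adjusted p = 0.133, edgeR). Between genotypes it was 0.34 with testosterone and 0.09 with vehicle, neither called. Without both stroma-poor libraries the WT change was -0.69 and called (adjusted p = 0.0452). That fit left out low-scoring libraries on the vehicle side only. With the fibroblast score as a covariate the WT change was 0.16 (adjusted p = 0.458), and with the smooth muscle score it was -0.91 in ARNoC (adjusted p = 0.0025) and -0.86 in WT (adjusted p = 0.00145). Fibroblast markers were themselves called lower for 1 of 10 genes in ARNoC and 5 of 10 in WT, while smooth muscle markers were called higher for 5 of 10 genes in ARNoC and 1 of 10 in WT.

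Fgfr4, known in mouse as the bile acid pathway receptor of the liver, was at the limit of detection. It had 5 counts in ARNoC with testosterone, 7 in ARNoC with vehicle, 0 in WT with testosterone and 9 in WT with vehicle. With a floor of 3 counts over the group, WT with testosterone was at least 2.46-fold lower than WT with vehicle when the 9 vehicle counts are taken as exact, and their own 95% Poisson interval is 4.12 to 17.1 counts. With no filter on low counts the WT difference had an adjusted p of 0.0854 (edgeR), and it was not called.

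Levels were compared between genes per kilobase (kb) of exon, merged over all annotated transcripts, so the Fgfr2 length includes bases shared with Ctbp2. Fgf1 led in every group, with a mean normalized count per kb of 292 in ARNoC with testosterone, 369 in ARNoC with vehicle, 299 in WT with testosterone and 332 in WT with vehicle. Fgfr1 and Fgfr2 came next: Fgfr1 had 49.7, 62.5, 39.4 and 59.1 per kb in the same order of groups, and Fgfr2 had 42.4, 67.4, 43.2 and 61.8. The ranges of these receptors overlapped within each group, so their order was not fixed. Fgf7, Fgf10 and Fgfr3 followed at 16.8 to 25.4 per kb in all groups, again with overlapping ranges. Fgf18 and Fgf2 had means of 0.832 to 6.52 per kb, and Fgfr4 had 0 to 0.476.

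**Figure D3:**
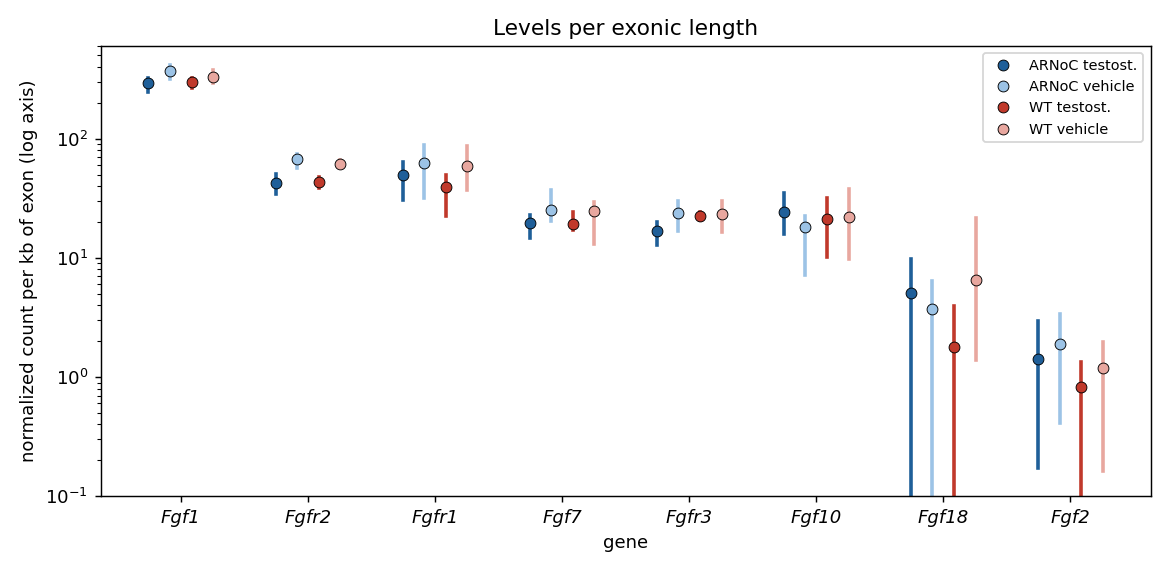
Mean normalized count per kb of exon for 8 FGF genes by group, on a log axis, with bars from the lowest to the highest library; bars that reach 0 are cut at the axis. Fgf1 lies above 248 in every library, and the receptors Fgfr1 and Fgfr2 share the next level.

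Of the summed receptor level per kb of a library, Fgfr3 made up 15.4% in ARNoC with testosterone, 15.7% in ARNoC with vehicle, 21.6% in WT with testosterone and 16.1% in WT with vehicle. In WT its share was 18.6% to 25.3% with testosterone and 13.7% to 17.4% with vehicle, without overlap, while the change of its own level was not called. A share also depends on the other receptors, and the level of Fgfr2 was called lower in WT. In ARNoC the shares of Fgfr3 overlapped, at 12.6% to 17.7% with testosterone and 11.4% to 22.4% with vehicle. The share of Fgfr2 was 39.3%, 44.2%, 41.7% and 44.1% in the same order of groups, and that of Fgfr1 was 44.9%, 39.9%, 36.7% and 39.5%. These shares are descriptions and were not tested.

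Within groups the stromal members varied together. Over the 20 libraries, as deviations of log2 CPM from the group means, Fgfr1 followed Fgf2 with r = 0.93, Fgf10 with r = 0.88 and Fgf7 with r = 0.51. Fgfr1 followed the fibroblast score with r = 0.91, and so did Fgf2 with 0.90, Fgf10 with 0.76 and Fgf7 with 0.59. Endothelial, myeloid, nerve and glia, and smooth muscle scores gave similar values for Fgfr1, at 0.91, 0.85, 0.84 and 0.80. The lymphocyte score gave 0.66, and the luminal score ran the other way at -0.84. Fgf2 followed the myeloid score with r = 0.84, so these values do not single out fibroblasts. Fgf10 followed the nerve and glia (0.91), endothelial (0.86) and smooth muscle (0.78) scores more closely than the fibroblast score. Fgf1, Fgfr2 and Fgfr3 stood outside this pattern, with r of 0.05, -0.005 and 0.16 for the fibroblast score. The genes of a library share its dissection and depth, and these values are descriptions only.

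**Figure D4:**
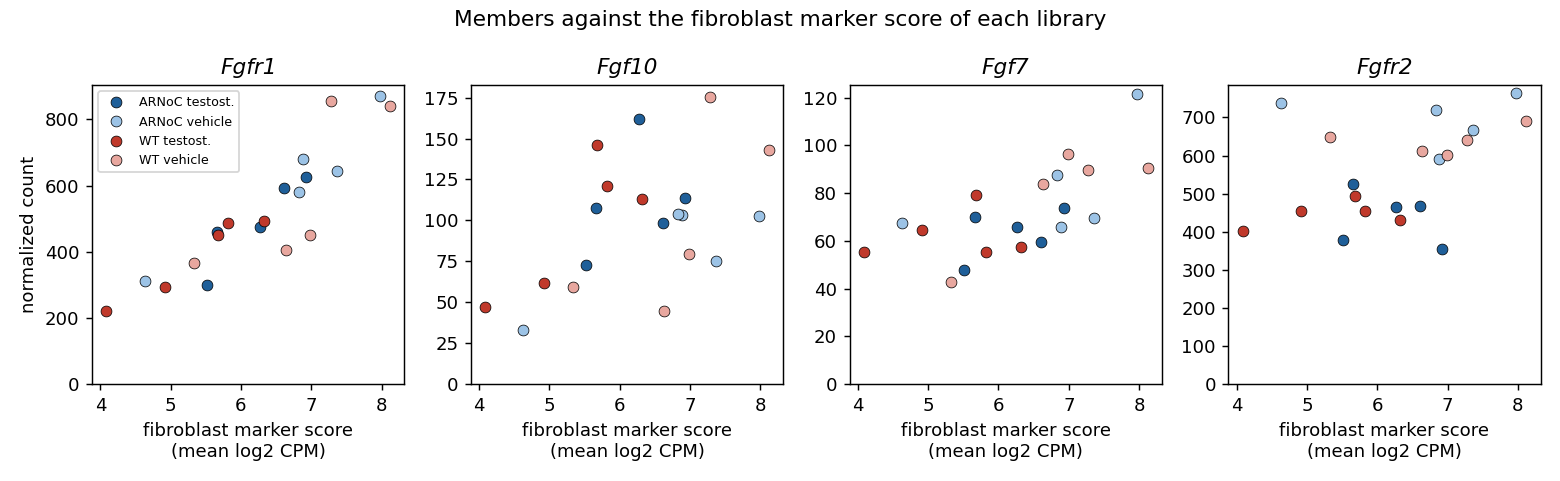
Normalized counts of Fgfr1, Fgf10, Fgf7 and Fgfr2 against the fibroblast marker score (mean log2 CPM) of each of the 20 libraries, coloured by group. Fgfr1 climbs along the score in all groups, while Fgfr2 splits by treatment at every score.

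The genes most like each member, by the same within-group r over 20 libraries, were as follows. They were picked as the highest from the 15261 genes tested, so high values follow partly from the choice. How high r would reach by chance was not computed. For Fgfr1 they were Pros1 (0.974), Ltbp1 (0.973) and Ddr2 (0.972), and for Fgf2 they were Colec12 (0.97), Epb4.1l2 (0.966) and Rarres2 (0.954). For Fgf10 they were Dchs1 (0.94), Ldb2 (0.936) and Clstn2 (0.935), and for Fgf7 they were Arl5c (0.835), Kif5c (0.808) and Dock8 (0.803). The other members had r of 0.79 to 0.872 with their nearest genes: Lcp1 (0.848), E130102H24Rik (0.804) and Zfp808 (0.79) for Fgf1, Gm11131 (0.872), Poli (0.845) and Fbxo32 (0.843) for Fgfr2, and Snap23 (0.848), Tulp4 (0.81) and Ccdc15 (0.802) for Fgfr3.

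The pathway around these genes was described through 6 lists, whose counts stand beside 19.4% of all genes called higher and 16.8% lower in ARNoC, and 20.4% higher and 18.8% lower in WT. Of the other FGF ligands 3 of 17 passed the filter and 0 were called in either genotype by edgeR. Fgf9, a mesenchyme-stimulating ligand, had log2 changes of -0.88 in ARNoC (adjusted p = 0.265) and -1.14 in WT (adjusted p = 0.161). Fgf11 had 0.56 and 0.08, and Fgf13 had 0.15 and -0.37, in ARNoC and in WT. Fgf11 and Fgf13 belong to the intracellular FGF-like proteins, which are not secreted.

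Among co-receptors and binding proteins, 3 of 17 tested genes were called higher and 2 lower in ARNoC, and 1 higher and 2 lower in WT, with median log2 changes of -0.08 and -0.27. Flrt3, a membrane protein that binds FGF receptors and promotes their signalling, rose 2.45-fold in ARNoC (adjusted p = 4.26e-07, edgeR) and 1.86-fold in WT (adjusted p = 4.16e-05, edgeR). Fgfbp1, a carrier that frees FGFs from the matrix, rose 2.94-fold in ARNoC (adjusted p = 0.000181, edgeR) and had a log2 change of -0.16 in WT (adjusted p = 0.672). By normalized count it averaged 513 ± 132 in ARNoC with testosterone, 176 ± 49.8 in ARNoC with vehicle, 355 ± 57.8 in WT with testosterone and 397 ± 184 in WT with vehicle (SD, n = 5 each). The ARNoC vehicle group thus had the lowest mean, but its libraries, at 122 to 255, overlapped those of WT with vehicle, at 183 to 617. Fgfbp1 was not called between genotypes with vehicle. Its interaction, at 1.72 on the log2 scale, was not called either (adjusted p = 0.25, edgeR). Gpc1, a heparan sulfate proteoglycan, rose by 0.93 on the log2 scale in ARNoC (adjusted p = 0.00227, edgeR). In WT it averaged 101 with testosterone and 86.8 with vehicle and was not called.

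Cd44, whose variant forms carry heparan sulfate and which leukocytes also express, fell 2.66-fold in ARNoC (adjusted p = 3.47e-05, edgeR) and 2.73-fold in WT (adjusted p = 2.3e-05, edgeR). Myeloid markers scored 3.6 to 4.6 in ARNoC with testosterone and 4.21 to 5.88 in ARNoC with vehicle, and 3.21 to 4.04 in WT with testosterone and 4.36 to 6.35 in WT with vehicle, and their part in the fall of Cd44 was not tested. Sdc4, a syndecan, fell by 0.44 in ARNoC (adjusted p = 0.00142, edgeR) and by 0.34 in WT (adjusted p = 0.00885, edgeR) on the log2 scale, and its WT call was lost with the basal score (0.0603). Fgfrl1, a receptor without a kinase domain, was called in neither genotype, with log2 changes of -0.06 and -0.13. Scaled to total counts, the list had 3 higher and 6 lower in ARNoC and 1 higher and 10 lower in WT.

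Of the enzymes that build heparan sulfate, 2 of 17 tested were called higher and 2 lower in ARNoC, and 3 higher and 3 lower in WT, with median log2 changes of 0.08 and -0.08. Ndst2, which removes acetyl groups and adds sulfate, rose by 0.69 in ARNoC (adjusted p = 0.00022, edgeR) and by 0.64 in WT (adjusted p = 0.000509, edgeR) on the log2 scale, and was at 0.22 in WT with total-count scaling (adjusted p = 0.167). Ugdh, which makes the sugar precursor of the chains, fell by 1.13 in ARNoC (adjusted p = 0.000211, edgeR) and by 0.84 in WT (adjusted p = 0.00281, edgeR). The WT change of Ugdh was -0.42 with the luminal score (adjusted p = 0.237) and -0.47 with the basal score (0.124) as a covariate, neither called. Hs3st3a1, a sulfotransferase acting late on the chain, rose 3.41-fold in ARNoC (adjusted p = 0.000631, edgeR), and its paralog Hs3st3b1 rose by 0.80 on the log2 scale in WT (adjusted p = 0.00018, edgeR). Neither was called in the other genotype, though its mean was higher there too. Hs3st3a1 averaged 11.1 in WT with testosterone and 5.99 in WT with vehicle. Hs3st3b1 averaged 158 in ARNoC with testosterone and 131 in ARNoC with vehicle. No interaction was called in this list. Xylt2, which starts the chains, fell by 0.30 in ARNoC (adjusted p = 0.0258, edgeR), a call lost without ARNoC vehicle library 2 (0.057) or 3 (0.0835) and with the smooth muscle score (0.053). Its WT means were 244 with testosterone and 281 with vehicle, not called. In WT Hs6st1, another sulfotransferase, fell by 0.49 (adjusted p = 0.00138, edgeR). Its ARNoC means were 696 with testosterone and 850 with vehicle, not called. Extl3, a chain-initiating enzyme, rose by 0.31 in WT (adjusted p = 0.000492, edgeR) and turned to -0.11 when scaled to total counts. Its ARNoC means were 1413 with testosterone and 1282 with vehicle, not called. Scaled to total counts, the list had 2 higher and 7 lower in ARNoC and 1 higher and 10 lower in WT.

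With testosterone, 2 of the 88 genes tested in the 6 lists (2.27%) differed between the genotypes by an adjusted p under 0.05, near the 1.69% of all genes called. Flrt3 had normalized counts of 353, 331, 306, 433 and 368 in ARNoC with testosterone, against 223, 288, 237, 233 and 203 in WT with testosterone, which was 1.52-fold higher in ARNoC (adjusted p = 0.0255, edgeR). Hs3st3a1 had 53.1, 42.1, 37.5, 24.0 and 26.1 in ARNoC with testosterone, against 13.9, 10.6, 4.65, 7.05 and 19.1 in WT with testosterone, which was 3.20-fold higher in ARNoC (adjusted p = 0.0209, edgeR). Neither gene overlapped between these groups, as was so in the higher direction for 1.51% of all genes, and neither interaction was called, at 0.40 for Flrt3 (adjusted p = 0.592) and 0.84 for Hs3st3a1 (adjusted p = 0.701). The Flrt3 call was lost on leaving out any of 8 of these 10 libraries, ARNoC testosterone library 3 and WT testosterone library 2 being the exceptions, with adjusted p of 0.0534 to 0.0935. That of Hs3st3a1 was lost without WT testosterone library 3 (0.0616) or 4 (0.0619) or ARNoC testosterone library 1 (0.0585), and with only the groups compared (0.0523). Both calls were lost with the smooth muscle score as a covariate (0.0523 for each gene), and that of Flrt3 also with the basal score (0.0624).

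Of 24 signal transduction genes, 6 were called higher and 4 lower in ARNoC, and 5 higher and 5 lower in WT, with median log2 changes of 0.004 and 0.03. Nras, a Ras protein, rose by 0.62 in ARNoC (adjusted p = 7.77e-08, edgeR) and by 0.63 in WT (adjusted p = 5.33e-08, edgeR) on the log2 scale. Mapk3, a kinase of the MAP kinase cascade, fell by 0.38 in ARNoC (adjusted p = 0.00131, edgeR) and by 0.25 in WT (adjusted p = 0.0225, edgeR). The WT call of Mapk3 was lost without WT vehicle library 3 (0.0594) or 4 (0.051). Gab1, a docking protein that links FGF receptors to PI3 kinase, fell 2.14-fold in ARNoC (adjusted p = 2.22e-07, edgeR) and by 0.76 on the log2 scale in WT (adjusted p = 1.74e-05, edgeR). Stat3, a transcription factor, fell by 0.61 in WT (adjusted p = 0.00573, edgeR), and by 0.35 without WT vehicle library 2 (adjusted p = 0.00822). Its ARNoC means were 2065 with testosterone and 2161 with vehicle, not called. Frs2, the adaptor at the receptor, had log2 changes of 0.01 in ARNoC and -0.10 in WT and was called in neither. Scaled to total counts, the list had 2 higher and 16 lower in ARNoC and 2 higher and 15 lower in WT.

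Feedback inhibitors held 0 called higher and 3 lower of 12 tested in each genotype, and the same 3 genes were called in both: Spry1, Il17rd and Lrig3. Of all genes tested, 16.8% were called lower in ARNoC and 18.8% in WT. Spry1, a Sprouty protein, had normalized counts of 401, 339, 271, 358 and 413 in ARNoC with testosterone, against 820.3, 510.4, 716, 690.4 and 757 in ARNoC with vehicle. In WT they were 468, 364, 420.3, 383 and 375 with testosterone, against 600.2, 566, 683, 617 and 582 with vehicle. No testosterone library reached a vehicle library of its genotype, and Spry1 fell 1.95-fold in ARNoC (adjusted p = 2.76e-06, edgeR) and 1.51-fold in WT (adjusted p = 0.000566, edgeR), with an interaction of -0.37 that was not called (adjusted p = 0.559).

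Il17rd, also called Sef, an FGF signalling inhibitor, fell by 0.58 in ARNoC (adjusted p = 0.00779, edgeR) and by 0.76 in WT (adjusted p = 0.000883, edgeR) on the log2 scale. Lrig3, which restrains receptor tyrosine kinases, fell by 0.47 in ARNoC (adjusted p = 0.012, edgeR) and by 0.45 in WT (adjusted p = 0.0159, edgeR). Both calls of Lrig3 were lost with the luminal score (adjusted p = 0.0755 in ARNoC and 0.247 in WT) and with the basal score (0.194 and 0.168) as a covariate. Those of Il17rd were lost with the luminal score, at log2 changes of -0.29 in ARNoC (adjusted p = 0.145) and -0.31 in WT (0.201), and in ARNoC with the basal score (0.09). Other inhibitors that FGF signalling induces were not called: log2 changes in ARNoC and in WT were -0.06 and -0.16 for Spry2, 0.30 and -0.33 for Spry4, and -0.11 and -0.27 for Dusp6. The list's median log2 change was -0.08 in ARNoC and -0.23 in WT, and with total-count scaling 7 of 12 in ARNoC and 8 of 12 in WT were called lower.

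Among genes induced by FGF signalling, 2 of 15 tested were called higher and 2 lower in ARNoC, and 2 higher and 3 lower in WT, with median log2 changes of -0.17 and -0.16. Bmp7, a secreted growth factor, rose by 0.91 in ARNoC (adjusted p = 1.05e-05, edgeR) and by 0.92 in WT (adjusted p = 8.9e-06, edgeR) on the log2 scale. Ccnd1, cyclin D1, rose by 0.49 in ARNoC (adjusted p = 0.023, edgeR) and by 0.79 in WT (adjusted p = 0.000782, edgeR). Its ARNoC call was lost without any of ARNoC vehicle libraries 2, 3 or 5 or testosterone libraries 3, 4 or 5, with adjusted p of 0.0545 to 0.104. It was also lost with no filter on low counts (0.0531), with only the groups compared (0.0803), without both stroma-poor libraries (0.0652) and with the smooth muscle score (0.171). Scaled to total counts, Ccnd1 was called in neither genotype, at 0.14 in ARNoC (adjusted p = 0.514, edgeR) and 0.37 in WT (adjusted p = 0.0797, edgeR). Fos, an immediate early gene, fell by 1.62 in ARNoC (adjusted p = 0.00747, edgeR) and by 1.88 in WT (adjusted p = 0.00263, edgeR). With the luminal score as a covariate Fos was at -0.90 in ARNoC (adjusted p = 0.153) and -0.85 in WT (0.251), and the basal score also ended the ARNoC call (0.0765). Phlda1 fell by 0.64 in ARNoC (adjusted p = 0.00765, edgeR), a call lost with the smooth muscle score (0.0517). Its WT means were 1668 with testosterone and 1878 with vehicle, not called. Ier3, another immediate early gene, fell by 0.63 in WT (adjusted p = 0.0383, edgeR), a call lost without WT vehicle library 1, 4 or 5 or WT testosterone library 1 or 3, with adjusted p of 0.0538 to 0.113. Its ARNoC means were 106 with testosterone and 131 with vehicle, not called. Etv4 and Etv5, ETS factors that are textbook targets of FGF receptors, were called in neither genotype: log2 changes in ARNoC and in WT were 0.0094 and 0.40 for Etv4, and -0.23 and -0.41 for Etv5. With total-count scaling 1 was higher and 5 lower in ARNoC, and 1 higher and 10 lower in WT.

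**Figure D5:**
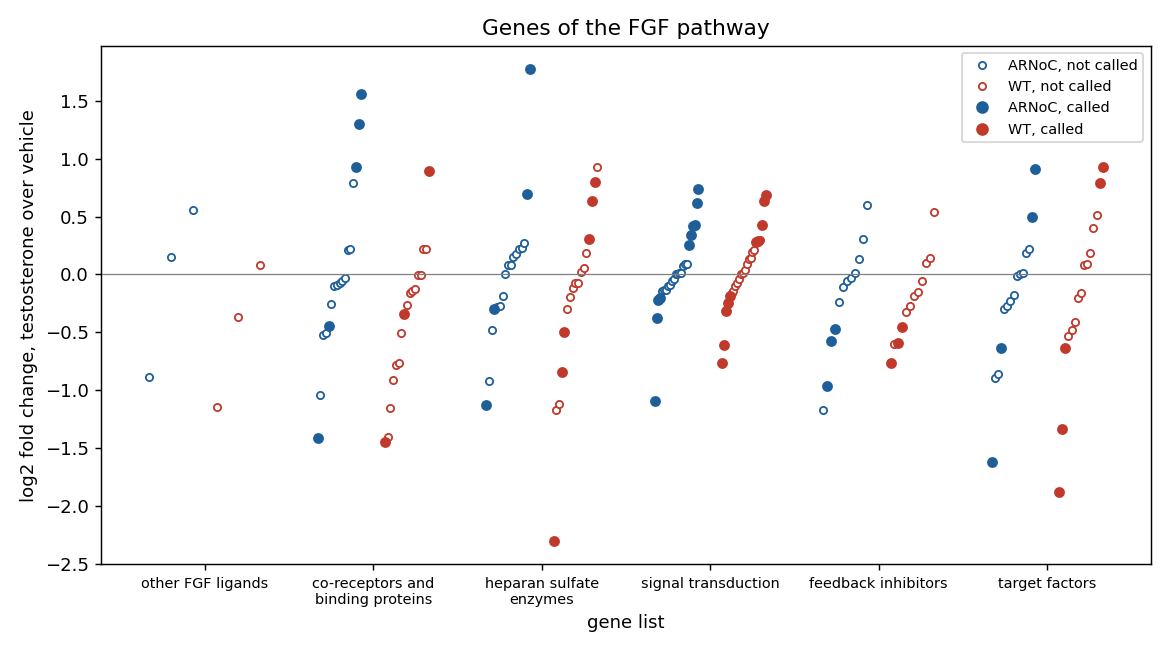
Log2 fold change, testosterone over vehicle, of each tested gene in 6 lists of the FGF pathway, ARNoC left and WT right within a list; each point is a gene and filled points are called at an adjusted p under 0.05. Called genes lie on both sides of 0 in 4 of the lists, and for feedback inhibitors all called genes lie below 0.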

How the data were processed

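Total RNA of ventral prostates from 4 groups of 5 libraries was sequenced. Per the submitters' processing notes, FastQC 0.11.7, HISAT2, SAMtools 1.5, HTSeq and DESeq2 were used with build mm10, and the sources used here state neither annotation nor strand setting. Raw counts were deposited by gene symbol for 43472 genes. The authors' normalized values, a signal deposited for 23221 genes, are counts divided by a DESeq2 size factor, and the deposited size factors are a ratio per library. Each normalized value times its factor gave the count back within 4.2e-09. All 20 sample columns were matched to labels and 0 were left over, and 0 rows lacked a gene name.

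Values printed are normalized counts. The 15261 genes that reached 10 normalized counts in 5 or more libraries were fitted with edgeR 4.0.16 in R 4.3.3, using TMM scaling, 1 mean per group over all 20 libraries, the quasi-likelihood F-test and Benjamini-Hochberg adjustment at 0.05. Common biological variation was 0.214. Shared controls link the comparisons: each vehicle group enters a testosterone comparison, a genotype comparison and the interaction. Marker scores are means of log2 CPM with a prior count of 2. Alternatives used DESeq2 1.42.0, limma 3.58.1 with pseudocounts of 1 and 5, other scalings and filters, and each library left out. The smooth muscle, luminal and basal scores as covariates were chosen after the data were seen. Luminal scores were 8.17 to 8.54 in WT with vehicle and 8.59 to 8.87 in WT with testosterone, without overlap. Basal scores in ARNoC were 3.88 to 4.59 with vehicle and 3.55 to 3.90 with testosterone. A call lost or a sign turned with these scores therefore cannot separate testosterone from the score. Scripts were tested on simulated data.

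Members and lists were chosen with earlier results of these data known. Named are all members and, per list, the 2 called genes with the smallest adjusted p in each direction and genotype, any gene called between genotypes, and Fgf9, Fgf11, Fgf13, Fgfrl1, Spry1, Spry2, Spry4, Dusp6, Etv4, Etv5 and Frs2. An item this rule takes is not reported here. Gpc1 and Lrig3 were named after their values were seen. Coordinates and exon lengths are those of GENCODE M21, and promoters those of RefSeq. Figures were drawn with matplotlib 3.10.9.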

Additional observations from a re-analysis of the deposited data

Results flagged for a closer look

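In 180 groups of 5 libraries, over 45 genes of this family and its pathway, 17 held a library whose gap to the nearest other, divided by the range of the group, exceeded Dixon's limit. Chance alone puts about 1 in 20 groups past it. Among the members, Fgf7 in WT vehicle library 2 was lowest at a normalized count of 42.8, with 83.7 to 96.3 in the others. Fgf18 in WT vehicle library 5 had 25.6, with 1.66 to 5.49 in the others. Fgfr4 had 4.68 in ARNoC testosterone library 2, with at most 1.17 in the others, and 3.80 in ARNoC vehicle library 3, with at most 1.046 in the others.

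WT vehicle library 5 was also highest for Fgf9, at 34.1 with 6.63 to 14.5 in the others, for Spry4, at 60.7 with 16.6 to 26.9, and for Fos, at 569.8 with 186 to 294. ARNoC vehicle library 4 was highest for Fgf13, at 40.8 with 15.1 to 20.4, and for Cd44, at 1092 with 427 to 471. WT vehicle library 2 had 4625 for Stat3, with 2199 to 2457 in the others.

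ARNoC testosterone library 3 had 2653 for Stat3, with 1867 to 1996 in the others, and was lowest for Bmp7 at 412, with 618 to 675. ARNoC testosterone library 1 had 67.0 for Etv4, with 36.3 to 44.4, and ARNoC testosterone library 4 had 609 for Frs2, with 482 to 511. WT testosterone library 5 had 352 for Ugdh, with 152 to 199. Lrig3 was highest in library 3 of both WT groups, at 254 with testosterone, where the others had 187 to 204, and at 324 with vehicle, where the others had 264 to 281.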

How the results depend on the processing

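The calls of Fgfr2 in both genotypes held under all 35 alternatives, that of Fgf1 in ARNoC under 34 and that of Fgfr3 in ARNoC under 26. Of these alternatives, 20 each left out 1 library. A library of the other genotype enters such a change only through the shared scaling and spread, so leaving it out tests the call little. The Fgfr3 call was lost in 5 of the 20, each without a library of ARNoC. No paired analysis was possible because the labels carry no replicate numbers shared between groups. Intervals leave room for changes of over 2-fold of Fgf2, Fgf10 and Fgfr1 and smaller ones of Fgf7, and counts under 40 per group limit Fgf18 and Fgfr4. Where a value moved, the cause was not tested.

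Members called in ARNoC numbered 3, against 5 with the smooth muscle score as a covariate and 1 with the basal score. In WT they numbered 1, against 5 with total-count scaling, 3 without both stroma-poor libraries, and 2 with the smooth muscle or the luminal score. Leaving out each library gave 2 to 3 in ARNoC and 1 to 2 in WT, the 2 without WT vehicle library 2.

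Over all genes, calls in ARNoC numbered 8726 with total-count scaling and 3328 with the basal score, against 5527. In WT they numbered 10219 with total-count scaling, 3951 with the luminal and 3893 with the basal score, against 5985. Between genotypes with testosterone they numbered 437 with total-count scaling, 500.0 by DESeq2, 518 with the luminal and 165 with the basal score, against 258. With vehicle they numbered 134 by DESeq2, 19 with only the groups compared, 75 with the fibroblast and 76 with the smooth muscle score, against 49. The interaction called 26 genes by DESeq2, 2 with total-count scaling, 2 with no filter on low counts, 1 by limma-trend with a pseudocount of 1 and 1 with the smooth muscle score, against 0. Leaving out each library gave 154 to 286 genes between genotypes with testosterone, with 159 without WT testosterone library 1 and 154 without library 3. With vehicle it gave 29 to 76, with 29 without ARNoC vehicle library 1 or WT vehicle library 4, 31 without ARNoC vehicle library 5 and 76 without ARNoC testosterone library 3. In the interaction it gave 0 to 2, with 2 without WT vehicle library 3, and 1 without any of ARNoC testosterone library 3, ARNoC vehicle library 3 and WT testosterone libraries 2, 4 and 5.

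Some changes turned sign. Marker scores partly coincide with treatment, so a sign turned with a score as a covariate does not separate treatment from score. In WT with the fibroblast score, log2 changes were 1.19 for Fgf2, 0.79 for Fgf10, 0.16 for Fgfr1 and 0.014 for Fgfr3. With the luminal score they were 1.78 for Fgf2, 0.11 for Fgf7, 1.21 for Fgf10, which was called (adjusted p = 0.0224), 0.52 for Fgfr1 and 0.15 for Fgfr3. With the basal score they were 0.14 for Fgf2, 0.22 for Fgf10 and 0.34 for Fgfr3. Fgf10 was 0.025 and 0.022 by limma-trend with pseudocounts of 1 and 5 and 0.085 by limma-voom, and Extl3 was -0.11 with total-count scaling. In ARNoC, Fgf2 was 0.38 with the fibroblast, 1.03 with the luminal and 0.20 with the basal score, Fgf10 was -0.28 with the smooth muscle score, and Fgfr1 was 0.41 with the luminal score.

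Between genotypes with testosterone, total-count scaling gave 0.051 for Fgf1 and 0.062 for Fgfr2. The fibroblast score gave -0.066 for Fgf2, -0.13 for Fgf7, -0.17 for Fgf10 and -0.035 for Fgfr1. The smooth muscle score gave 0.011 for Fgf1, -0.14 for Fgf2, -0.15 for Fgf7, -0.32 for Fgf10 and -0.12 for Fgfr1, and the luminal score gave 0.0061 for Fgfr2. With vehicle, Fgf7 was -0.0027 by limma-voom, -0.067 without both stroma-poor libraries and -0.063 with the smooth muscle score, Fgf10 was 0.46 with the luminal score, Fgfr1 was -0.070 with the smooth muscle score, and Fgfr3 was -0.084 without both stroma-poor libraries.

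In the interaction, the fibroblast, smooth muscle and luminal scores gave -0.81, -0.43 and -0.75 for Fgf2, -0.20, -0.087 and -0.17 for Fgf7, and -0.18, -0.048 and -0.11 for Fgfr1. Fgf10 was -0.0064 with the fibroblast score. Limma-trend gave -0.022 for Fgf7 with a pseudocount of 1, and -0.019 for Fgf7 and -0.00199 for Fgf2 with a pseudocount of 5. Leaving out each library turned the sign within ranges of -0.25 to 0.28 for Fgf10 and -0.15 to 0.051 for Fgfr3 in WT. With testosterone, ARNoC minus WT ranged from -0.079 to 0.015 for Fgf1, -0.028 to 0.12 for Fgf7 and -0.10 to 0.042 for Fgfr2. With vehicle it ranged from -0.14 to 0.10 for Fgf7, -0.44 to 0.048 for Fgf10, -0.062 to 0.26 for Fgfr1 and -0.059 to 0.15 for Fgfr3. The interaction ranged from -0.35 to 0.35 for Fgf2 and -0.068 to 0.18 for Fgf7.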
